A study of Mus musculus with 12 samples.

Results

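The Tcl1 gene cluster of mouse chromosome 12 holds Tcl1 and the 5 related genes Tcl1b1, Tcl1b2, Tcl1b3, Tcl1b4 and Tcl1b5. The 6 genes were taken by name from a table of 23230 genes measured by RNA sequencing in WT and Zar1/2-null mouse oocytes, and all 6 were among the 11502 genes that 1 or more libraries held at 1 FPKM or above. FPKM corrects the fragments mapped to a gene for its length and for the size of the library, and was here further scaled by spiked-in ERCC RNA. TCL1 family proteins are small proteins that bind the kinase AKT and promote its activation, and human TCL1A is known as an oncogene of T cell leukaemia. In mice, Tcl1 and the Tcl1b genes are known as genes of oocytes and early embryos, and maternal Tcl1 supports the first cleavages.

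There were 6 groups of 2 libraries each, and every library was made from 10 pooled oocytes of females on a C57BL6/ICR hybrid background. Growing oocytes came from females aged 13.5 days by the sample labels, germinal vesicle (GV) oocytes, which are fully grown and arrested in prophase, from females aged 21 days at 44 h after PMSG, and metaphase II (MII) oocytes were taken 16 h after hCG. The paper gives a younger age than the labels for the females of the growing stage. By its methods, females for ovulated oocytes received PMSG 44 h before hCG. Both hormones are gonadotropins, PMSG used to grow follicles and hCG to trigger ovulation. Zar1/2-null oocytes lack ZAR1 and ZAR2, which are RNA-binding zygote arrest proteins. Both genes were disrupted by CRISPR/Cas9 in the whole animal: Zar1 carries a small deletion followed by an early stop codon, and Zar2, listed as Zar1l in the table, carries a frameshifting deletion in its first exon. WT oocytes carried neither allele. The MII label of the null libraries gives the time of collection, and the meiotic stage that these oocytes had reached is not part of these data. The paper reports that ovulated null oocytes were arrested at metaphase I or telophase I. In comparisons that use the null MII libraries, genotype and meiotic stage therefore cannot be told apart. The labels do not say whether the 2 libraries of a group came from separate females, so the tests measure the spread between libraries only. In pools of oocytes, fewer oocytes that hold a transcript and less of it per oocyte cannot be told apart. The cDNA was primed with oligo-dT on the poly(A) tail, so a level can depend on tail length as well as on transcript amount. The paper reports that tails of selected transcripts failed to lengthen in maturing null oocytes. Tail length is not part of these data, and its part in the differences between stages and genotypes was not tested.

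The 6 genes span 76724 bases of mm9, from 106384224 to 106460947 on chromosome 12, with gaps of 4464 to 9763 bases between neighbours. In map order, Tcl1b2, Tcl1b1, Tcl1b5, Tcl1b3 and Tcl1b4 lie on the plus strand and Tcl1 lies last on the minus strand. Each reference transcript has 4 exons and codes for a protein of 116 to 122 residues. The coding sequences of the 5 Tcl1b genes were 71.3% to 86.3% identical to each other, with Tcl1b5 and Tcl1b3 the closest pair. Tcl1 shared 51.1% to 52.2% of its coding bases with them. Over whole transcripts Tcl1b5 and Tcl1b3 were 92.4% identical.

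This likeness bears on every Tcl1b value, since reads were cut to 50 bases and only uniquely mapped reads were counted. Of the 50-base windows of each transcript, 34.2% in Tcl1b3, 31.4% in Tcl1b2, 20.9% in Tcl1b5, 13.1% in Tcl1b1 and 4.07% in Tcl1b4 were identical to a window of another gene of the cluster, and none in Tcl1. With up to 2 mismatches allowed the shares were 73.5%, 56.5%, 62.6%, 39.3% and 32.4% in the same order, and again 0% in Tcl1. Levels of the Tcl1b genes relative to each other are therefore uncertain, whereas a change of 1 gene between libraries is read from the same windows in all of them. Whether reads of 1 Tcl1b gene were counted for another was not tested.

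The upstream sequences show how alike the Tcl1b genes are and how far Tcl1 stands from them. The 100 bases before the RefSeq transcription start of 4 Tcl1b genes and Tcl1 follow on the gene's own strand, 5′ to 3′, taken from the RefSeq promoter table and placed on mm9 by an exact match, with the hexamer CAGGTG and its reverse complement CACCTG in capitals.
Tcl1b5 (chr12:106414454-106414553, plus strand): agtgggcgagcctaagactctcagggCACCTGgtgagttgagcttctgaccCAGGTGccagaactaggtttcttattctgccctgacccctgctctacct
Tcl1b3 (chr12:106429155-106429254, plus strand): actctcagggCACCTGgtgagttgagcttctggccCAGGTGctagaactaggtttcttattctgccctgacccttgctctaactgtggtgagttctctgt
Tcl1b1 (chr12:106397814-106397913, plus strand): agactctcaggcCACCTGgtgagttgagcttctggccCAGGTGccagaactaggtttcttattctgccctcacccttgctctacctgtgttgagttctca
Tcl1b2 (chr12:106385129-106385228, plus strand): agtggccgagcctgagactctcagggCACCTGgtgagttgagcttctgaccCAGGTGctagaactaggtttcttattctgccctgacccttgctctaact
Tcl1 (chr12:106460948-106461047, minus strand): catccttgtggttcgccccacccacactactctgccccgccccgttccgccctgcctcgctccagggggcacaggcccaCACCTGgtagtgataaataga
The hexamer is an E-box, the kind of site that basic helix-loop-helix transcription factors bind. On either strand it occurred 2 times in the 300-base promoter window of each of the 5 Tcl1b genes and 1 time in that of Tcl1, while 20.2% of all 32851 promoter windows of that length held it. TATAAA occurred in none of the 6 windows and in 13.6% of all, and TAATTG in none of the 6 and in 8% of all. The motifs were chosen after the sequences were seen, and a match is a description of letters. The window of Tcl1b4 falls inside an annotated exon of another of its transcripts and is not shown, and 14 bases of the Tcl1b1 window and 18 of the Tcl1b3 window are exonic in the annotation used. The RefSeq starts of Tcl1b1, Tcl1b2, Tcl1b3 and Tcl1b4 lie inside the gene as the mm9 annotation draws it, downstream of its first base.

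The 3′ ends also differ between Tcl1 and the Tcl1b genes. The 30 bases that end with the polyadenylation hexamer nearest the transcript end are shown with that hexamer in capitals.
Tcl1b5: ccaaccccaacttgtttttaactaATTAAA
Tcl1b3: ccaaccccaacttgtttttaactaATTAAA
Tcl1b4: ccaaccccaacttgtttttaactaATTAAA
Tcl1b1: cccaccccaacttgtttttaactaATTAAA
Tcl1b2: cccaccccaacttgttttaaagtaATTAAA
Tcl1: tattttagagatacggctggatttAATAAA
These 30 bases were identical in Tcl1b5, Tcl1b3 and Tcl1b4. All 5 Tcl1b transcripts carried ATTAAA starting 22 to 25 bases from their end and no AATAAA in the 3′ UTR, where Tcl1 carried AATAAA starting 21 bases from its end. TTTTAT, a form of the cytoplasmic polyadenylation element that governs poly(A) tail length in oocytes, was found in the 3′ UTR of Tcl1 and in none of the 5 Tcl1b genes, and TTTTAAT in none of the 6. The Tcl1 copy, in capitals, lies 31 bases before its hexamer.
Tcl1 element: gaatgtgtgggaTTTTATgtggttctattt
Of 19254 annotated 3′ UTRs, searched on the transcript strand, 72.3% held AATAAA, 39.9% ATTAAA, 43.1% TTTTAT and 21.9% TTTTAAT.

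The scale of the table matters for what follows. The authors multiplied each library by a factor set by its ERCC share. The factors recovered from the values were 1 in the WT growing libraries, 0.697 and 0.836 in WT GV, 0.225 and 0.228 in WT MII, 0.779 and 0.862 in null growing, 0.533 and 0.583 in null GV, and 0.252 and 0.283 in null MII. Zar1l stood at 639 and 644 FPKM in WT growing oocytes against 17.5 and 13.2 in null growing oocytes, and at 533 and 504 against 20.9 and 19.6 at GV, and at 3.13 and 4.72 against 1.36 and 1.01 at MII, so the growing and GV libraries matched their labels. Zar1 stood at 603 and 725 FPKM in WT growing against 407 and 460 in null growing oocytes, at 439 and 423 against 136 and 203 at GV, and at 83.6 and 72.4 against 190 and 194 at MII. A small deletion leaves most of that transcript, so its level does not check the labels. The 12 oocyte markers summed to between 4105 and 24574 FPKM per library and the 15 granulosa and cumulus cell markers to 29.9 to 33.4 in WT growing and 14.5 to 22.8 in null growing oocytes, to 17.5 to 20.3 and 14.1 to 16.2 at GV, and to 5.21 to 5.52 and 7.33 to 8.58 at MII. Between 10 and 13 of the 15 stayed under 1 FPKM in each group. Ptx3 and Areg were at 0 in all 12 libraries, Amh in all groups but null GV, and Foxl2 in WT GV and both MII groups. Of the 5 kept, 1 was called higher and 3 lower in null growing oocytes, 1 and 2 at GV, and none at MII. The 13 lymphoid and immune markers, listed because Tcl1 is also a gene of lymphocytes, summed to 91.9 to 115 FPKM in WT growing and 14.6 to 32.4 in null growing oocytes, to 40.0 to 42.9 and 11.8 to 20.5 at GV, and to 18.6 to 23.9 and 7.73 to 8.31 at MII. Ms4a1 carried nearly all of these sums, with 113 and 90.0 of them in WT growing oocytes, while Cd79b, Cd52 and Tyrobp were at 0 in all 12 libraries and 11 or 12 of the 13 stayed under 1 FPKM in each group. The part of these cells in the results below was not tested.

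Tcl1 was among the most abundant transcripts of the oocyte. It reached 2024 and 2015 FPKM in WT growing oocytes, 1907 and 1547 in WT GV oocytes and 1061 and 1069 in WT MII oocytes. In null oocytes it reached 1907 and 1572, 1484 and 1896, and 1759 and 1426 at the same stages. It ranked between 11 and 32 of the 11502 genes in all 12 libraries. On the ERCC-scaled values both null libraries lay below both WT libraries in growing oocytes, and the genotypes overlapped at GV. At MII both null libraries lay above both WT libraries. Before that scaling the growing libraries overlapped, at 2211 and 2019 in the null against 2024 and 2015 in WT. At GV the null libraries then lay above, at 2784 and 3249 against 2281 and 2218. With 2 libraries against 2 such an order is a description, and the share of all genes without overlap was not computed.

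Tcl1b1 was the most abundant Tcl1b gene in all 12 libraries. WT growing, GV and MII oocytes gave 1028 and 954, 1250 and 1058, and 752 and 633 FPKM, and null oocytes 714 and 530, 749 and 807, and 677 and 549. The genotypes did not overlap at the growing and GV stages, where the null libraries were lower, and overlapped at MII. As for Tcl1, such an order is a description. Before the ERCC scaling the null libraries were lower at MII as well, at 2394 and 2175 against 3345 and 2779 in WT. Its rank ran from 138 in a null growing library to 21 in a WT MII library.

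Tcl1b2, Tcl1b3 and Tcl1b4 formed a middle group. Tcl1b2 stood at 227 and 246, 370 and 320, and 211 and 191 FPKM in WT growing, GV and MII oocytes and at 204 and 139, 293 and 314, and 285 and 249 in null oocytes. Tcl1b3 stood at 299 and 290, 310 and 256, and 187 and 170 in WT and at 207 and 141, 242 and 252, and 239 and 188 in null oocytes. Tcl1b4 stood at 276 and 281, 332 and 247, and 183 and 173 in WT and at 237 and 186, 235 and 236, and 242 and 179 in null oocytes. The order among these 3 genes changed from group to group. Their libraries did not overlap in WT growing oocytes (Tcl1b3 highest, Tcl1b2 lowest) or in null GV oocytes (Tcl1b2 highest, Tcl1b4 lowest), and in each of the other 4 groups at least 1 pair of neighbours in that order overlapped.

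Tcl1b5 was the lowest gene of the cluster in all 6 groups. It gave 92.3 and 95.9 FPKM in WT growing oocytes, 208 and 179 in WT GV oocytes and 70.5 and 59.9 in WT MII oocytes. In null oocytes it gave 77.0 and 49.4, 80.0 and 74.9, and 127 and 84.9. On the ERCC-scaled values the WT GV libraries stood above all 10 others, and the null libraries showed no such peak at GV. Before that scaling the WT GV libraries, at 248 and 257, were not the highest. They lay below the WT MII libraries (314 and 263) and the null MII libraries (448 and 337). In every group Tcl1 lay above Tcl1b1, and both lay above the other 4 genes without overlap.

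**Figure D1:**
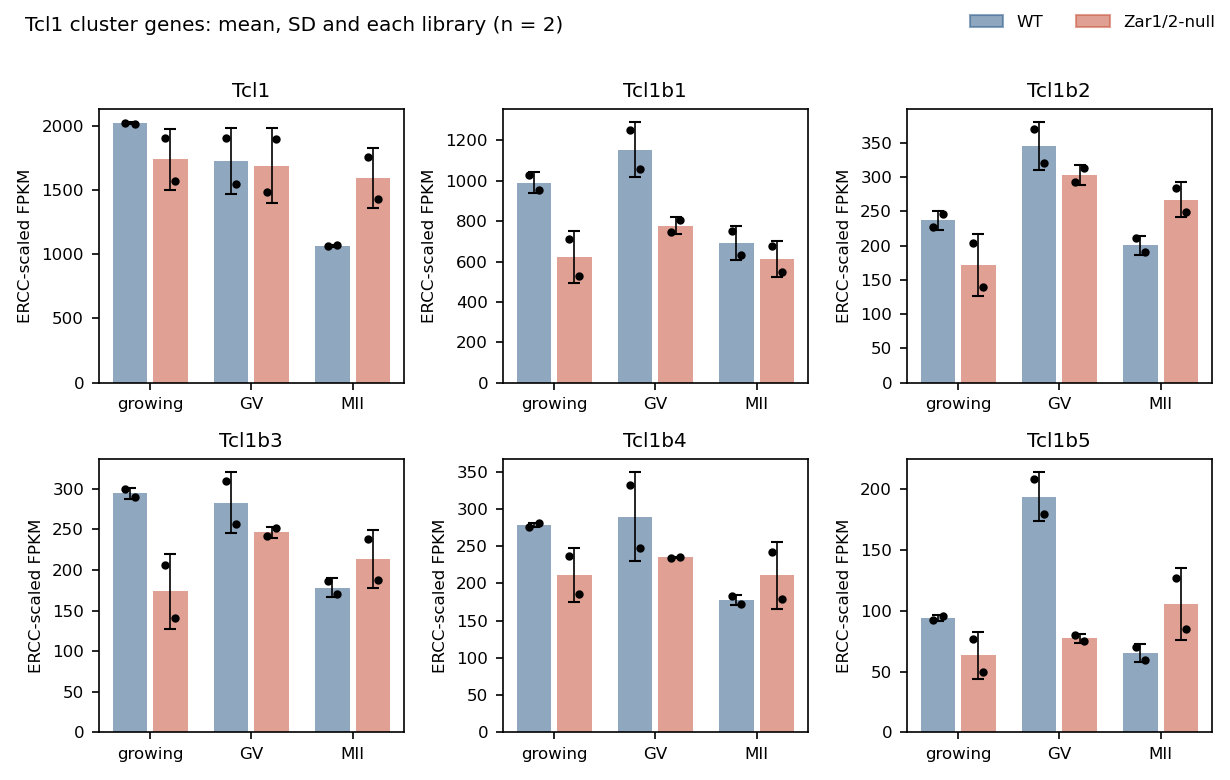
ERCC-scaled FPKM (linear axis from 0) of each gene of the Tcl1 cluster at the growing, GV and MII stages, for WT and null females; bars are means, error bars are SD and points are the 2 libraries of a group. Tcl1b5 in WT GV oocytes (208 and 179 FPKM) stands above the null GV libraries (80.0 and 74.9 FPKM), whereas the Tcl1 libraries of both genotypes overlap at GV.

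Within a library the rank of a gene does not depend on the ERCC factor. From growing to GV to MII oocytes the ranks of the Tcl1b genes moved toward the top of the table in both genotypes. Tcl1b2, for example, ranked 551 and 500 in WT growing, 301 and 288 in WT GV and 82 and 79 in WT MII oocytes, and 546 and 711, 274 and 263, and 136 and 126 in null oocytes. The summed FPKM of the 6 genes made up 0.613% to 0.619% of the table in WT growing, 0.750% to 0.758% in WT GV and 1.89% to 1.92% in WT MII oocytes. The null libraries gave 0.519% to 0.590%, 0.767% to 0.848% and 1.52% to 1.59%.

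**Figure D2:**
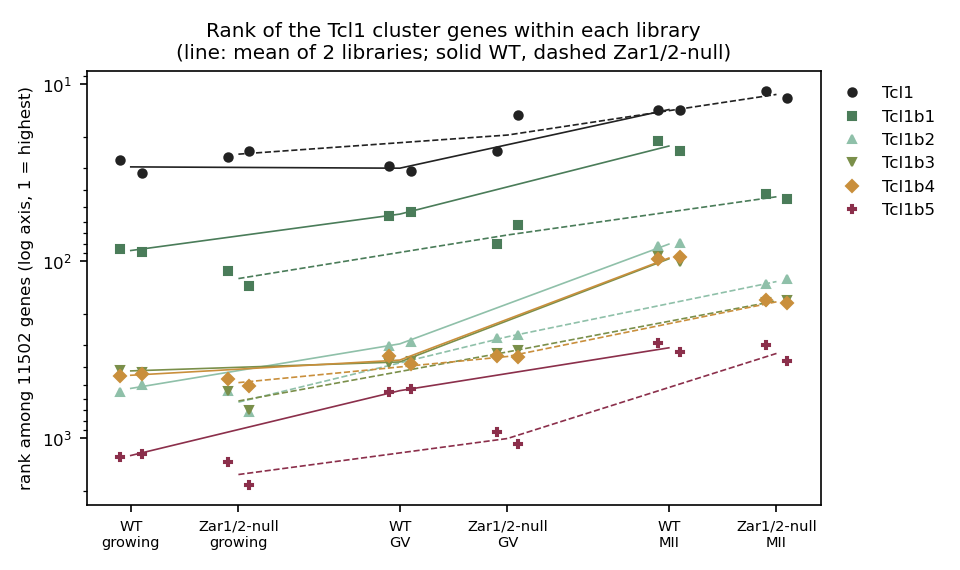
Rank of the Tcl1 cluster genes among 11502 genes within each library (log axis, inverted so that the highest gene is at the top), by group; points are libraries and lines join the means of the 2 libraries, solid for WT and dashed for Zar1/2-null. Tcl1 stays between ranks 11 and 32, and Tcl1b5 moves from 1276 and 1238 in WT growing to 291 and 329 in WT MII oocytes.

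Genotypes were compared with limma on log2(FPKM + 1), fitted over all 11502 genes and 12 libraries, and a gene was called at a Benjamini-Hochberg adjusted p under 0.05. In growing oocytes 2 of the 6 genes were lower in the null, where 24.4% of all genes were called lower, and none was higher. Tcl1b1 was lower by 1.59-fold (log2 change -0.69, SE 0.19, limma adjusted p = 0.0166) and Tcl1b3 by 1.69-fold (-0.78, SE 0.20, adjusted p = 0.0110). The other 4 did not pass, with log2 changes of -0.22 for Tcl1, -0.41 for Tcl1b4, -0.49 for Tcl1b2 and -0.60 for Tcl1b5. The median log2 change was -0.54 over the 6 genes and -0.16 over all genes. Null growing replicate 2 was the lowest of the 4 growing libraries for all 6 genes, and without it neither call held (Tcl1b1 adjusted p = 0.153, Tcl1b3 0.115). Neither held without WT growing replicate 1 (0.103 and 0.0650) or replicate 2 (0.0598 and 0.0513), and without null growing replicate 1 Tcl1b2 and Tcl1b5 passed as well (0.0141 and 0.0190). Without the ERCC factors both calls held and Tcl1 turned from -0.22 to 0.07. That scaling gave 1711 genes called higher and 1412 lower, against 1224 and 2801 as deposited.

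In GV oocytes 2 of 6 genes were lower in the null, where 40.6% of all genes were called lower, and none was higher. Tcl1b5 was lower by 2.5-fold (log2 change -1.31, 95% interval -1.82 to -0.80, adjusted p = 0.00125), the largest change of the 6 genes at this stage. Tcl1b1 was lower by 1.48-fold (-0.56, SE 0.19, adjusted p = 0.0331). Tcl1 differed by -0.03, with an interval of -0.45 to 0.38, and Tcl1b2, Tcl1b3 and Tcl1b4 by -0.18, -0.19 and -0.28. The median was -0.24 over the 6 genes and -0.38 over all genes.

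The Tcl1b5 call at GV held in all 20 alternatives tried, with adjusted p between 0.000432 and 0.0254, and was -0.86 without the ERCC factors. The Tcl1b1 call held in 11 of the 20. It was lost without the ERCC factors (-0.11, adjusted p = 0.619) and without WT growing replicate 1 (0.0528) or 2 (0.0527), WT GV replicate 1 (0.194), or null GV replicate 1 (0.134) or 2 (0.0707). On the unscaled values Tcl1 was instead called higher in the null GV oocytes (0.42, adjusted p = 0.0273), and the calls over all genes were 827 higher and 1554 lower, against 325 and 4666 as deposited.

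In MII oocytes 2 of 6 genes were higher in the null, where 21.5% of all genes were called higher, and none was lower. Tcl1 was higher by 1.5-fold (log2 change 0.57, SE 0.19, adjusted p = 0.0365) and Tcl1b5 by 1.62-fold (0.67, SE 0.23, adjusted p = 0.0476). Tcl1b2 gave 0.41, Tcl1b3 0.25, Tcl1b4 0.23 and Tcl1b1 -0.18. The median was 0.33 over the 6 genes and 0.06 over all genes. Of the 12 oocyte markers 10 were also called higher in the null at this stage and none lower, with summed levels of 8444 to 10074 FPKM against 4105 to 4558 in WT, and their part in the result was not tested. Both calls lay near the threshold: that of Tcl1 held in 12 of 20 alternatives and that of Tcl1b5 in 7. Adjusted p reached 0.217 for Tcl1 and 0.347 for Tcl1b5 without null MII replicate 1, 0.132 and 0.0856 without WT MII replicate 1, and 0.123 and 0.226 without WT MII replicate 2. Both were also lost without WT growing replicate 1 (0.0651 and 0.0732) or 2 (0.0646 and 0.0732), and that of Tcl1b5 without WT GV replicate 1 (0.0657) or 2 (0.0660) or null GV replicate 1 (0.0601) or 2 (0.0600). Without the ERCC factors Tcl1 was still called higher and Tcl1b1 was called lower (-0.42, adjusted p = 0.0234), while the calls over all genes were 2831 higher and 2694 lower, against 2472 and 1183. By the 3-fold rule that the study used, applied to group means with a floor of 1 FPKM, 0 of 6 genes passed in growing, GV or MII oocytes, where 4.52%, 4.66% and 8.82% of all genes did.

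**Figure D3:**
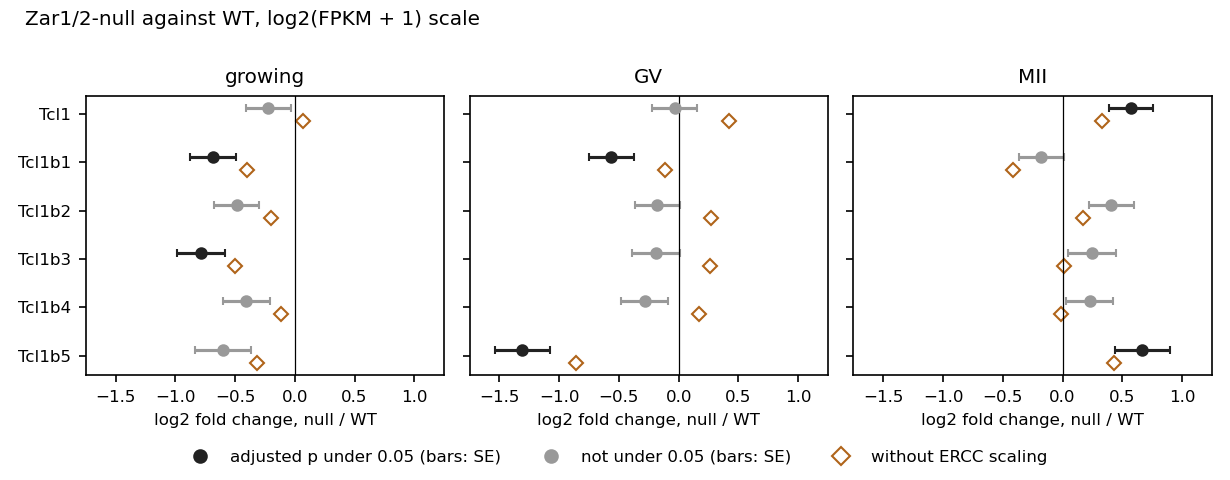
Log2 fold change of Zar1/2-null against WT oocytes for each gene of the Tcl1 cluster at 3 stages, on the log2(FPKM + 1) scale (linear axis); filled circles are the ERCC-scaled estimates with SE bars, black where the limma adjusted p is under 0.05 and grey elsewhere, and open diamonds are the estimates without ERCC scaling. Tcl1b5 at GV is the largest change on either scale (-1.31 and -0.86), while at GV Tcl1, Tcl1b2, Tcl1b3 and Tcl1b4 lie below 0 with the scaling and above 0 without it.

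Between growing and GV oocytes of WT females, 2 of 6 genes were called higher at GV, where 2.77% of all genes were, and none was lower. Tcl1b5 was 2.06-fold higher (log2 change 1.03, SE 0.23, adjusted p = 0.00926) and Tcl1b2 1.46-fold higher (0.54, SE 0.19, adjusted p = 0.0492). The other 4 ranged from -0.23 for Tcl1 to 0.22 for Tcl1b1, and without the ERCC factors Tcl1b1 was also called higher (0.60, adjusted p = 0.0263). The Tcl1b5 call was lost only without WT growing replicate 2, of the 20 alternatives (1.06, adjusted p = 0.0534). The Tcl1b2 call held in 6 of 20, and was lost on leaving out any library other than the 2 null growing ones, with adjusted p up to 0.186 without WT growing replicate 1.

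In null females 2 of 6 genes were called higher at GV than in growing oocytes, where 4.76% of all genes were, and none was lower. Tcl1b2 was 1.77-fold higher (0.85, SE 0.19, adjusted p = 0.00275) and passed in all 20 alternatives. Tcl1b3 was 1.42-fold higher (0.53, SE 0.20, adjusted p = 0.0395) and passed in 11 of 20, with adjusted p of 0.326 without null growing replicate 2. It was also lost without either null GV library (0.0935 and 0.121), either WT growing library (0.0593 and 0.0594) or either WT MII library (0.0511 and 0.0513). Tcl1b5 changed by 0.32, with an interval of -0.19 to 0.83. The test of the difference between genotypes in this step called 0 of 6 genes, and 0 at an unadjusted p under 0.05 (limma, 13.9% of all genes called in either direction), with -0.71 for Tcl1b5 (SE 0.33, adjusted p = 0.179) and 0.59 for Tcl1b3 (SE 0.28, adjusted p = 0.191). Without the ERCC factors all 6 genes were called higher at GV in the null, and the calls over all genes moved from 547 higher and 6424 lower to 1646 and 2455. In WT they moved from 319 and 3306 to 421 and 372.

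Between GV and MII oocytes of WT females, all 6 genes were called lower on the ERCC-scaled values, as were 93.4% of all genes, whereas without the ERCC factors all 6 estimates were positive and 5 were called higher. Tcl1b5 was lower by 2.97-fold (log2 change -1.56, SE 0.23, adjusted p = 5.86e-05) and the other 5 by -0.66 to -0.78. The median was -0.71 over the 6 genes and -1.28 over all genes. Without WT GV replicate 1 the scaled calls of Tcl1b3 and Tcl1b4 were lost (adjusted p = 0.0675 and 0.0672). On the unscaled values Tcl1, Tcl1b1, Tcl1b2, Tcl1b3 and Tcl1b4 were higher at MII by 0.97 to 1.09, Tcl1b5 by 0.18 (adjusted p = 0.394), and the median of all genes was -0.43. The calls over all genes moved from 12 higher and 10747 lower to 2267 and 5473.

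In null females 0 of 6 genes were called lower at MII than at GV, and 0 at an unadjusted p under 0.05 (limma), where 68.7% of all genes were called lower. The log2 changes ran from -0.35 for Tcl1b1 (interval -0.77 to 0.07) to 0.42 for Tcl1b5 (interval -0.09 to 0.93), with a median of -0.18 against -0.72 over all genes. Without null MII replicate 2 Tcl1b5 was called higher (0.70, adjusted p = 0.0332), and without the ERCC factors all 6 were called higher, with 2248 genes higher and 4656 lower in all against 24 and 7903.

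The test of the difference between genotypes in the step from GV to MII called Tcl1b5 alone among the 6 genes, where 33.9% of all genes were called in that direction. The Tcl1b5 change was more positive in the null by 1.97 on the log2 scale (SE 0.33, interval 1.253 to 2.696, adjusted p = 0.000985), and it passed in all 20 alternatives with adjusted p between 0.000238 and 0.0164. The other 5 genes gave 0.39 to 0.61, near the all-gene median of 0.48, and each turned negative, between -0.09 and -0.31, without the ERCC factors, when the calls over all genes went from 3903 higher and 74 lower to 1742 and 743. Of these, Tcl1 and Tcl1b2 had an unadjusted p under 0.05 (0.0423 and 0.0490) with adjusted p of 0.0947 and 0.105. The comparisons at GV and across both steps share the GV libraries, so they do not stand apart from each other.

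Shares within a library are free of the ERCC factor and are given as a description. Tcl1b5 made up 4.75% and 4.97% of the summed FPKM of the 6 genes in WT GV oocytes and 2.59% and 2.09% in null GV oocytes. At MII the order was the other way, with 2.86% and 2.61% in WT and 3.81% and 3.17% in the null. In growing oocytes the shares were 2.34% and 2.47% in WT and 2.30% and 1.89% in the null. The ratio of Tcl1b5 to Tcl1b3, the gene closest to it in sequence, was 0.671 and 0.699 in WT GV and 0.331 and 0.298 in null GV libraries. It was 0.378 and 0.352 in WT MII and 0.531 and 0.452 in null MII libraries, and between 0.308 and 0.373 in the 4 growing libraries. These transcripts are the most alike of the cluster, so the level of their ratio is uncertain. Whether reads of one were counted for the other was not tested. With 2 libraries against 2, an exact permutation test could not fall below p = 0.333, and none was run.

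Tcl1 itself weighed more against its neighbours in the null. The ratio of Tcl1 to the summed Tcl1b genes was 1.05 and 1.08 in WT growing and 1.33 and 1.5 in null growing oocytes, 0.773 and 0.751 against 0.928 and 1.13 at GV, and 0.756 and 0.871 against 1.12 and 1.14 at MII. The genotypes did not overlap at any of the 3 stages. With 2 libraries against 2 this order is a description, and how often other ratios show it was not computed. Tcl1b1 moved the opposite way, from 26.0% and 24.6% of the 6 genes in WT growing to 21.3% and 20.2% in null growing, from 28.6% and 29.3% in WT GV to 24.3% and 22.6% in null GV, and from 30.5% and 27.6% in WT MII to 20.3% and 20.5% in null MII libraries. Shares of the 6 genes sum to a whole in each library, and Tcl1b1 is the largest part of the Tcl1b sum. Its lower share and the higher ratio of Tcl1 are therefore tied and do not stand apart. Tcl1b4 kept between 6.58% and 7.61% in all 12 libraries.

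**Figure D4:**
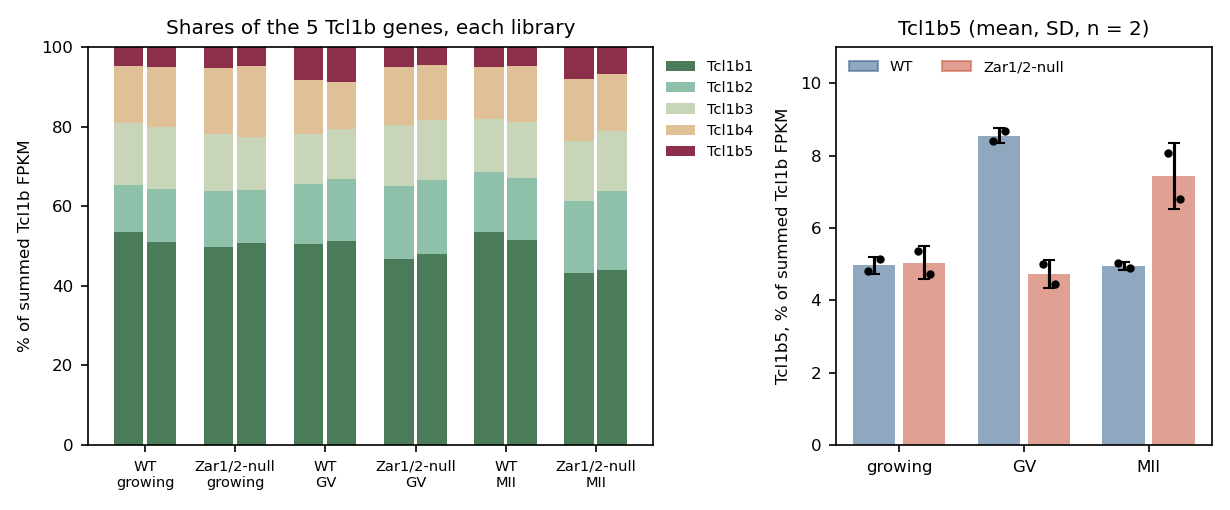
Left, percent of the summed FPKM of the 5 Tcl1b genes held by each of them, with 1 bar per library and 2 bars per group; right, the percent held by Tcl1b5 (bars are means, error bars SD, points the 2 libraries). Tcl1b5 holds 8.41% and 8.69% in WT GV against 5.0% and 4.45% in null GV libraries, and 5.03% and 4.88% in WT MII against 8.07% and 6.79% in null MII libraries.

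TCL1 proteins act on AKT, so the genes of that pathway were set beside the cluster. Of 29 listed genes 26 were kept, and in the null 4 were called higher and 5 lower in growing oocytes, 0 and 16 in GV oocytes, and 1 and 4 in MII oocytes, with median log2 changes of -0.14, -0.50 and -0.10 against all-gene medians of -0.16, -0.38 and 0.06. Without the ERCC factors the counts were 4 and 2, 1 and 5, and 1 and 8. Over all genes, 10.6% were called higher and 24.4% lower in growing, 2.83% and 40.6% in GV, and 21.5% and 10.3% in MII oocytes.

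Among the kinases, Akt1 was higher in the null in growing (0.90, SE 0.16, adjusted p = 0.00121) and MII oocytes (0.92, SE 0.16, adjusted p = 0.000792) and gave -0.05 at GV. Its values were 7.03 and 7.65 FPKM in WT growing against 12.5 and 17.1 in null growing oocytes, and 3.59 and 4.27 against 8.37 and 8.26 at MII. Akt2 was lower at GV alone (-0.47, adjusted p = 0.0366), a call that was lost without the ERCC factors (-0.11, adjusted p = 0.776). Mtor, the growth kinase downstream of AKT, and Tsc2, which restrains it, were lower at GV (-0.68 and -0.55), and both calls were lost without the ERCC factors.

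The regulatory and catalytic subunits of PI3-kinase, which makes the lipid that recruits AKT, were lower in part. Pik3r3 was lower in the null at all 3 stages, by -1.29, -1.52 and -1.07, with adjusted p between 1.30e-05 and 4.19e-05, and stood at 7.69 and 8.18 FPKM in WT GV against 2.13 and 2.09 in null GV oocytes. Pik3r1 was also lower at all 3 stages (-0.88, -1.05 and -0.67), and Pik3cb in growing and GV oocytes (-0.71 and -0.90). Pik3cb levels were low, 2.88 and 2.62 FPKM in WT GV against 1.25 and 0.797 in null GV oocytes. Pik3r2 was higher in null growing oocytes (0.77, adjusted p = 0.00230) at low levels, 1.28 and 2.09 FPKM against 0.512 and 0.598 in WT. Foxo1, a transcription factor that AKT inhibits, and Kit, a receptor upstream of PI3-kinase, were lower at all 3 stages (-0.48, -1.36 and -0.92, and -0.71, -0.86 and -0.98), though without the ERCC factors the growing calls of Foxo1 and Pik3cb and the growing and GV calls of Kit were lost. Phlpp2, a phosphatase of AKT, was lower at GV (-0.71, limma adjusted p = 0.00105). Its levels there were low, 1.37 and 1.31 FPKM in WT against 0.425 and 0.444 in the null. Without the ERCC factors Phlpp2 was called lower at MII as well (-0.92, limma adjusted p = 0.00146).

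Mtcp1, the TCL1 family gene that lies outside the cluster, differed between genotypes by -0.03, -0.03 and 0.05 at the 3 stages, with none called. It stood at 82.1 and 85.4 FPKM in WT growing and 90.3 and 74.2 in null growing oocytes, at 102 and 81.8 and 87.2 and 91.6 at GV, and at 21.0 and 19.2 and 22.1 and 19.8 at MII. The WT and null libraries overlapped at each stage on this scale, and without the ERCC factors Mtcp1 was called higher in null GV oocytes (0.42, adjusted p = 0.0259).

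The flanking genes were set beside the cluster as well. Flanking genes were sought only among the 23230 genes measured. The nearest of these on each side was Glrx5, 105103 bases before Tcl1b2, and the noncoding gene 2810011L19Rik, 113856 bases after Tcl1. Of the 5 nearest genes on each side 7 were kept, and in the null 0 were called higher and 2 lower in growing, 0 and 2 in GV, and 1 and 2 in MII oocytes, where the shares of all genes were 10.6% and 24.4%, 2.83% and 40.6%, and 21.5% and 10.3%. Of the 7, 5 were called at 1 or more stages: Dicer1 at all 3, 4831426I19Rik lower in growing (-0.61), Bdkrb1 lower at GV (-0.60), and Glrx5 higher and Scarna13 lower (-1.02) at MII. Dicer1, which encodes the nuclease that makes small RNAs, was lower in the null at all 3 stages (-1.13, -1.38 and -1.04), with 44.6 and 38.3 FPKM in WT growing against 18.4 and 18.3 in null growing oocytes. Glrx5, a mitochondrial iron-sulfur cluster protein, was higher in null MII oocytes (3.74, SE 0.16, adjusted p = 1.52e-08), with 86.9 and 65.2 FPKM against 4.76 and 4.68 in WT MII oocytes. It gave -0.20 and -0.07 at the growing and GV stages, where neither was called.

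Patterns over the 12 libraries were compared as a description, by Pearson's r of log2(FPKM + 1) among the 4320 other genes averaging 10 FPKM or more, all of which share libraries and ERCC factors. The 5 genes most like Tcl1 were Tesc (r = 0.973), Ddx39 (0.971), Polr2c (0.958), Blvra (0.956) and E330034G19Rik (0.956). Those most like the mean of the 6 genes were Gnrh1 (0.940), Cks1b (0.935), Ctnnal1 (0.935), Smagp (0.924) and Obox1 (0.913). Within the cluster r ran from 0.340 between Tcl1 and Tcl1b2 to 0.912 between Tcl1b3 and Tcl1b4, and the 10 pairs of Tcl1b genes lay between 0.645 and 0.912. Without the ERCC factors r was 0.918 between Tcl1 and Tcl1b2, and all 15 pairs lay between 0.796 and 0.983.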

How the data were processed

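RNA of 12 oocyte libraries was copied to cDNA with oligo-dT primers by Smart-seq2 with ERCC spike-ins. The authors trimmed reads to 50 bases, mapped them to mm9 with TopHat2 2.1.1, kept uniquely mapped reads, estimated FPKM with Cufflinks 2.2.1 and UCSC gene models, and multiplied each library by an ERCC factor; the deposited values are these scaled FPKM, with replicates kept apart. The table holds FPKM and no read counts per gene, so no counting intervals were computed. The ERCC factors were recovered from the values, which return to 6 significant digits once divided by the right factor (100% of values over 1). A gene was kept if any library held it at 1 FPKM or above, which left 11502 of 23230, and the kept genes were tested with limma 3.58.1 in R 4.3.3 on log2(FPKM + 1), 1 term per group over all 12 libraries, eBayes with an intensity trend, two-sided, Benjamini-Hochberg adjusted over all kept genes and called under 0.05. The pseudocount of 1 FPKM understates changes of low genes. The script was tested on simulated data. Positions are those of Gencode vM1 on mm9, transcript identity was computed with Biopython 1.88, and promoters come from the RefSeq table of build GRCm38.p6. The genes named were the 6 cluster genes, Zar1, Zar1l, Akt1, Akt2, Mtcp1 and at most 10 other AKT pathway genes by lowest adjusted p, the flanking genes (5 per side) that were called or lay nearest, the 5 genes most alike in pattern, and Ms4a1, which was chosen after its values were seen. A further gene that the rule names is not reported here. The members and lists were chosen with earlier results of these data known. Alternatives covered scaling, pseudocount, filter, replicate block, the libraries in the fit, the trend and leaving out each library.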

Additional observations from a re-analysis of the deposited data

Results flagged for a closer look

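The step from GV to MII changed Tcl1b5 differently in the genotypes, by a test of the difference itself: the log2 change was more positive in Zar1/2-null than in WT oocytes by 1.97 (SE 0.33, limma adjusted p = 0.000985). WT libraries went from 208 and 179 FPKM at GV to 70.5 and 59.9 at MII, and null libraries from 80.0 and 74.9 to 127 and 84.9. Both null MII libraries lay above both null GV libraries and both WT MII libraries below both WT GV libraries. With 2 libraries against 2 this order is a description. Without the ERCC factors the WT change was 0.18 and the null change 1.48. The null MII libraries are matched to WT by time after hCG and not by the meiotic stage reached. The part of poly(A) tail length in this difference was not tested.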

How the results depend on the processing

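The 6 cluster genes were tested in 9 comparisons under 20 alternatives. The calls of Tcl1b5 at GV, of Tcl1b5 between genotypes from GV to MII and of Tcl1b2 in null GV against growing oocytes held in all 20. The table holds no read counts per gene, so the counting error of each value was not computed. With 2 libraries per group, a lone library left in a group is assumed to vary like the others.

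Without ERCC scaling the counts of genes called became 1 higher and 1 lower at GV and 1 higher and 1 lower at MII for null against WT, 6 higher for GV against growing in the null, 5 higher and 0 lower for MII against GV in WT, and 6 higher in the null. With median scaling they became 1 lower in growing, 1 higher and 1 lower at GV and 0 higher and 1 lower at MII for null against WT, 6 higher for GV against growing in the null, 6 higher and 0 lower for MII against GV in WT, and 6 higher in the null. Without a filter on low values they became 1 lower in growing, 1 lower at GV and 0 higher at MII for null against WT, and 1 higher for GV against growing in each genotype. With only the libraries compared they became 1 lower at GV, 0 higher at MII, and 1 higher for GV against growing in each genotype. A pseudocount of 0.1 FPKM and a filter on a mean of at least 5 FPKM each left 1 higher for GV against growing in WT. The fit with the replicate block gave 4 genes lower in null growing oocytes, adding Tcl1b2 and Tcl1b5, 3 higher for GV against growing in the null, adding Tcl1b1 (0.34, adjusted p = 0.0483), and 1 lower (Tcl1b1) for null MII against GV. Same-numbered libraries correlated with r between -0.143 and 0.211 over 15 pairs, 6 of them over 0.1, so the numbers were not taken to pair the samples. That r cannot see a shift common to all genes of a library. Both WT growing libraries had a factor of 1, although the paper lists different ERCC shares for them. The scaling thus appears to have been set within each replicate number, and the fit with the replicate block allows for such a shift.

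Signs turned as follows, each pair giving the log2 change without ERCC scaling and with median scaling. For null against WT these were 0.065 and 0.044 for Tcl1 in growing oocytes, and at GV 0.42 and 0.50 for Tcl1, 0.27 and 0.35 for Tcl1b2, 0.26 and 0.34 for Tcl1b3 and 0.17 and 0.25 for Tcl1b4. At MII Tcl1b4 gave -0.011 and -0.079, and Tcl1b3 -0.058 with median scaling. For GV against growing, Tcl1 gave 0.16 and 0.17 and Tcl1b3 0.32 and 0.34 in WT, and Tcl1 gave 0.51 and 0.63 in the null. For MII against GV in WT, Tcl1 gave 1.06 and 1.71, Tcl1b1 1.02 and 1.66, Tcl1b2 0.97 and 1.62, Tcl1b3 1.09 and 1.74, Tcl1b4 1.07 and 1.71, and Tcl1b5 0.18 and 0.83. In the null, Tcl1 gave 0.98 and 1.48, Tcl1b1 0.71 and 1.21, Tcl1b2 0.87 and 1.37, Tcl1b3 0.84 and 1.34, and Tcl1b4 0.89 and 1.38. For the difference between genotypes from GV to MII, Tcl1 gave -0.086 and -0.24, Tcl1b1 -0.31 and -0.46, Tcl1b2 -0.10 and -0.25, Tcl1b3 -0.25 and -0.40, and Tcl1b4 -0.18 and -0.33. The alternative scalings differ from the deposited values by 1 factor per library, which moves the genes of a library together.

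Leaving out 1 library at a time, the counts ran from 0 to 4 lower in growing, 1 to 2 lower at GV and 0 to 2 higher at MII for null against WT. They ran from 0 to 2 higher for GV against growing in WT and 1 to 2 in the null, and from 0 to 1 higher for MII against GV in the null. Signs also turned for values near 0: the log2 changes ran from -0.21 to 0.14 for Tcl1 at GV, from -0.20 to 0.071 for Tcl1b3 and -0.17 to 0.25 for Tcl1b4 between GV and growing in WT, from -0.22 to 0.13 for Tcl1 and -0.012 to 0.34 for Tcl1b4 in the null, from -0.26 to 0.094 for Tcl1 and -0.39 to 0.042 for Tcl1b4 between MII and GV in the null, and from -0.093 to 0.34 for Tcl1b1 and -0.090 to 0.33 for Tcl1b4 for the difference between genotypes from growing to GV. The eBayes fit without a trend changed no call of the 6 genes. Tcl1 was the highest and Tcl1b5 the lowest of the 6 genes in all 6 groups with and without the ERCC factors and by rank.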
